A study of Mus musculus with 6 samples.

Results

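Zfp691 and 5 genes annotated near it on mouse chromosome 4 (Ermap, Svbp, Tmem125, Cfap57 and Ebna1bp2) were followed in retinal cells sorted by an endothelial reporter. Control pups were compared with pups in which endothelial Bmal1 was targeted (Bmal1;CKO). The 6 genes were chosen by name out of the 55487 genes of the deposited table, after Zfp691 had stood out in the comparison of the genotypes in these same libraries. Its difference between the genotypes is therefore given as a description, with no test, and the same holds for the other 5. Cells positive for both GFP and tdTomato were collected by flow sorting from retinas of pups at postnatal day (P) 7.5. The paper gives noon as the time of collection, so no other time of day is covered. The 3 control libraries came from tdTomato FL/+;Pdgf-icreER pups. The 3 Bmal1;CKO libraries came from pups that in addition had both Bmal1 alleles floxed (Bmal1 FL/FL). All carried the Pdgf-icreER transgene, which makes GFP and a tamoxifen-inducible Cre in endothelial cells, and the tdTomato reporter over a wild-type allele, and tamoxifen was injected between P0.5 and P2.5 in both genotypes. The controls had no floxed Bmal1 allele, so the deletion is set against Cre activity alone. Nothing in the labels says whether a library came from a single pup or from a pool.

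Zfp691 encodes a C2H2 zinc finger protein, a member of the large class of proteins in which small zinc-bound folds contact DNA. Bmal1 pairs with Clock and binds the E-box, the letters CACGTG, in clock-controlled genes. Ermap encodes an erythroid membrane protein related to the butyrophilins. Svbp encodes the small chaperone of the vasohibins, enzymes that remove the last tyrosine of alpha-tubulin, and vasohibin 1 is known as an inhibitor of angiogenesis made by endothelial cells. Ebna1bp2 encodes a nucleolar protein needed to build the large ribosomal subunit, Cfap57 encodes a protein of cilia and flagella, and Tmem125 encodes a predicted membrane protein.

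All positions are on GRCm38. Zfp691 (ENSMUSG00000045268) is transcribed from the reverse strand of chromosome 4, from 119174195 down to 119169513, with 4 annotated transcripts. Ermap (ENSMUSG00000028644, 119175457 to 119190011) lies 1261 bases upstream of it on the same strand, and its exons share no base with those of Zfp691. Svbp (ENSMUSG00000028643, 119195306 to 119201298) is on the forward strand, 5294 bases beyond Ermap. The other members lie 542 to 625 kb to the other side. Tmem125 (ENSMUSG00000050854, 118540941 to 118544044) and Cfap57 (ENSMUSG00000028730, 118554551 to 118620777) are on the reverse strand and Ebna1bp2 (ENSMUSG00000028729, 118620799 to 118627776) on the forward strand. Cfap57 and Ebna1bp2 start back to back, with 21 bases between the annotated genes.

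Zfp691 has 2 start sites in RefSeq (GRCm38.p6), and the 250 bases before the outer one are shown because the counts of this gene, which are not split by start site, lay apart between the genotypes. Capitals mark CCAAT on either strand, a pentamer found in many promoters, which was picked after the sequence had been read.
Zfp691 before the outer start, chr4:119174196-119174445, reverse strand: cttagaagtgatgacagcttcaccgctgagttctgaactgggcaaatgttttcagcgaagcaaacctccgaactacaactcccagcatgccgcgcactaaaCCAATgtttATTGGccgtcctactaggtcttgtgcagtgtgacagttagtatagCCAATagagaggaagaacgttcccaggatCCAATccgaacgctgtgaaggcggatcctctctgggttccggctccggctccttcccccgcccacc
The sequence held CCAAT 4 times, and 0.84% of the 32851 promoters of that table held it at least 4 times in the same 250 bases. The 250 bases before the inner start held it 0 times. Since the pentamer was picked from this sequence, the share is a description only. The clock letters were sought from 250 bases before to 50 bases after each start site, on both strands. Neither window of Zfp691 held the E-box CACGTG, its variant CACGTT or the D-box TTATGTAA, which were present in 7.15%, 4.68% and 0.938% of all 32851 windows. The absence says only that these letters were not in these windows. Of the 8 windows of the 6 members, only that of Cfap57 held an E-box, shown here in capitals with 10 bases on each side.
Cfap57 window, chr4:118620878-118620903, reverse strand: gctgccactcCACGTGcccacaagca
This E-box lies 89 bases into the annotated span of Ebna1bp2 and inside one of its exons.

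The table gives, for each gene and library, the number of reads divided by the size factor of the library, here called the normalized count. Libraries carry the numbers of the table (control 1, 2 and 3, Bmal1;CKO 4, 5 and 6) and had 71145068 to 104017800 reads on genes. Zfp691 had 1144, 1155 and 1163 normalized counts in control libraries 1, 2 and 3, and 6499, 7823 and 5680.0 in Bmal1;CKO libraries 4, 5 and 6. The 3 Bmal1;CKO libraries all lay far above the 3 control libraries, and the lowest of them had 4.88 times the level of the highest control library. The control mean was 1154 ± 9.52 and the Bmal1;CKO mean 6667 ± 1081 (SD, n = 3 each), a ratio of 5.78. The log2 fold change was 2.52 with a standard error of 0.25, from limma-trend fitted to log2(normalized count + 1) of the 20459 genes that reached 10 reads in 3 or more libraries.

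These values rest on 930, 1245 and 1628 reads in control and 4621, 9057 and 6895 in Bmal1;CKO. Counting error alone would give an SD of 33.2 normalized counts between the control libraries, more than the 9.52 observed, so the control values lay closer together than counting alone gives on average. This counting SD takes each read as an independent draw, although the paper reports that the RNA was amplified before sequencing. In Bmal1;CKO the counting SD was 82.8 and the observed SD 1081. Among the 11654 tested genes with a control mean of at least 500 normalized counts, the coefficient of variation of Zfp691 over the control libraries, 0.824%, was the 6th lowest, where the median gene had 36.4%. By the size of its moderated t, Zfp691 stood 2nd of the 20459 tested genes and 1st of the 1211 on chromosome 4. By the size of the fold change alone it stood 1349th, behind many genes with few reads. Zfp691 was picked from this contrast, so these ranks, and the counts that follow, describe it and add no support. Of the 11569 tested genes with a mean of at least 500 over the 6 libraries, the lowest Bmal1;CKO library exceeded the highest control library more than 4-fold in 2, Zfp691 and Xist, and more than 2-fold in 9. Besides Zfp691, 2 of those 9 are on chromosome 4, as are 743 of the 11569 genes. They are Cap1 (122859047 to 122886056) and Gm13112 (154864506 to 154872003), both more than 1 Mb from Zfp691.

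**Figure D1:**
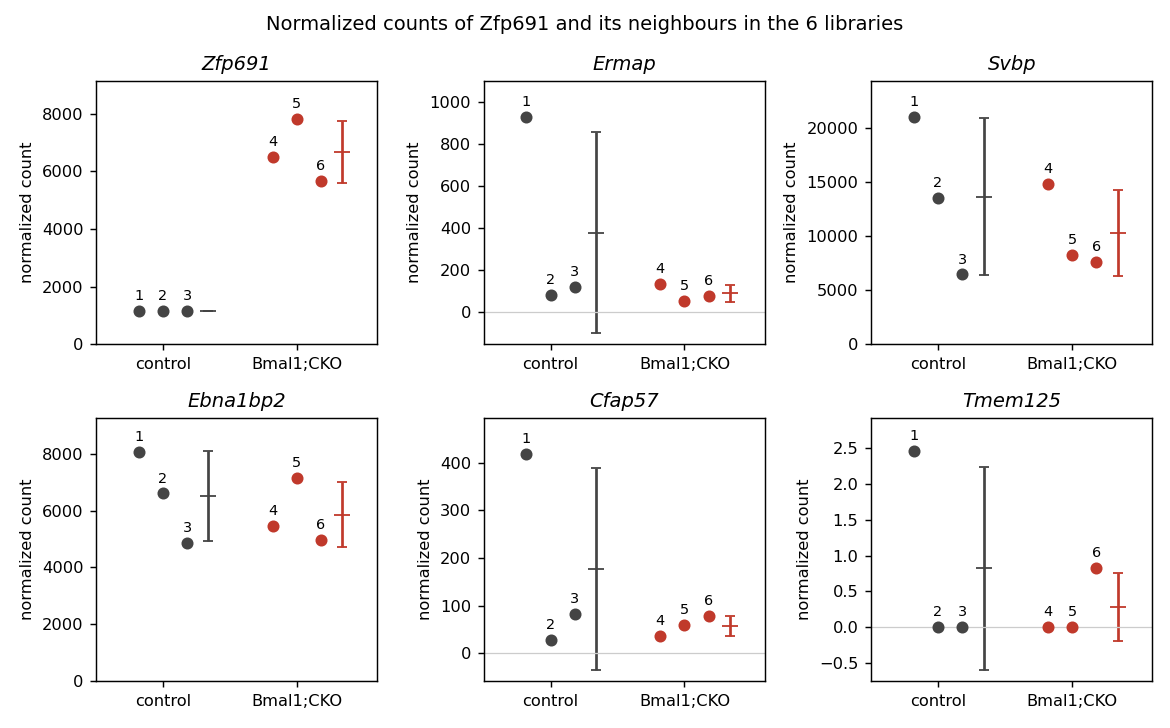
Normalized counts (vertical axes, linear) of the 6 genes in the 3 control (grey) and 3 Bmal1;CKO (red) libraries, with each library's number beside its point and the mean with its SD as a bar to the right. Zfp691 is the member whose groups do not overlap, with control from 1144 to 1163 and Bmal1;CKO from 5680.0 to 7823, while control library 1 is the highest point in the other 5 panels.

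Ermap, next to Zfp691, had 933, 81.7 and 119 normalized counts in control libraries 1, 2 and 3, and 135, 52.7 and 75.0 in Bmal1;CKO libraries 4, 5 and 6. Control library 1 stood 6.91 times above the highest of the other 5, and those 5 were mixed between the genotypes. The means were 378 ± 481 and 87.6 ± 42.6 (SD, n = 3 each), and the log2 fold change was -1.36 (standard error 1.06), or -0.28 without control library 1. With DESeq2 or edgeR, which model the reads, it was -2.11. Red cell transcripts did not share this pattern. The summed level of the 10 erythroid markers found in the table, among them Alas2 and the globins, was 1464 normalized counts in control library 1, the lowest of the 6, against 19069 in control library 3. Epb42, a red cell membrane protein gene, was the exception, with 205 normalized counts in control library 1 and at most 1.65 in the others.

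Svbp had 20990.5, 13496 and 6458 normalized counts in control and 14813, 8292 and 7647 in Bmal1;CKO. The genotypes overlapped throughout, and the control libraries alone spanned a 3.25-fold range that held every Bmal1;CKO value. The means were 13648 ± 7267 and 10251 ± 3964 (SD, n = 3 each), and the log2 fold change of -0.32 (standard error 0.47) was 0.07 without control library 1. Ebna1bp2 was the steadiest of these neighbours, with 8064, 6612 and 4871 in control and 5467, 7153 and 4962 in Bmal1;CKO. Its highest and lowest libraries, both of them control, differed 1.66-fold. The means were 6516 ± 1599 and 5861 ± 1148 (SD, n = 3 each), with a log2 fold change of -0.14 (standard error 0.28), or 0.03 without control library 1.

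Cfap57, which starts back to back with Ebna1bp2, had 418, 27.8 and 82.9 normalized counts in control and 36.6, 59.6 and 78.3 in Bmal1;CKO. As with Ermap, control library 1 stood alone, 5.05 times above the highest of the others, and the remaining libraries were mixed. The means were 176 ± 211 and 58.1 ± 20.9 (SD, n = 3 each), and the log2 fold change of -0.83 (standard error 1.14) turned to 0.20 without control library 1. It was -1.60 with DESeq2 and -1.58 with edgeR and TMM scaling. Tmem125 had 2 reads in control library 1, 1 read in Bmal1;CKO library 6 and 0 in the other 4. A count of 0 allows up to 3 reads, or 2.14 to 4.22 normalized counts in these libraries, for counting error only, so both groups were at or under the level that can be seen and no fold is given.

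Thus 5 of the 6 members passed the filter on reads, and in 1 of them, Zfp691, the 3 libraries of one genotype lay above the 3 of the other. The background for that count is 11.2% of all tested genes. Zfp691 was picked from this contrast, so the count adds nothing to the description. Over the whole table, limma-trend called 0% of the tested genes at an adjusted p under 0.05, while 1007 genes (4.92%) had an unadjusted p under 0.05. That number ran from 444 without Bmal1;CKO library 5 to 2444 without control library 3, and was 1769 without control library 1 (472 without Bmal1;CKO library 4). By the Wald test of DESeq2, 67 of 20247 genes with an adjusted p were called (0.331%).

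Lengths differ between these genes, so their levels were compared as normalized counts per kb of annotated exon. In control the order was Svbp (12815 ± 6824 per kb), Ebna1bp2 (1834 ± 450.0), Zfp691 (481 ± 3.97), Ermap (71.3 ± 90.8), Cfap57 (43.9 ± 52.6) and Tmem125 (0.351 ± 0.607, SD, n = 3 each). In Bmal1;CKO it was Svbp (9625 ± 3722), Zfp691 (2779 ± 451), Ebna1bp2 (1649 ± 323), Ermap (16.5 ± 8.04), Cfap57 (14.5 ± 5.19) and Tmem125 (0.117 ± 0.203, SD, n = 3 each). Ermap and Cfap57 did not differ beyond their spread in either group. Zfp691 and Ebna1bp2 changed places, and did so library by library. The ratio of Zfp691 to Ebna1bp2 per kb was 0.210, 0.259 and 0.354 in control libraries 1, 2 and 3 and 1.76, 1.62 and 1.70 in Bmal1;CKO libraries 4, 5 and 6. This ratio does not depend on the scaling of the libraries. Against Ermap, the nearest gene and transcribed from the same strand, the ratio was 2.71, 31.2 and 21.5 in control and 106, 328 and 167 in Bmal1;CKO, so the genotypes were apart here as well, although Ermap itself varied 17.7-fold over the libraries.

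**Figure D2:**
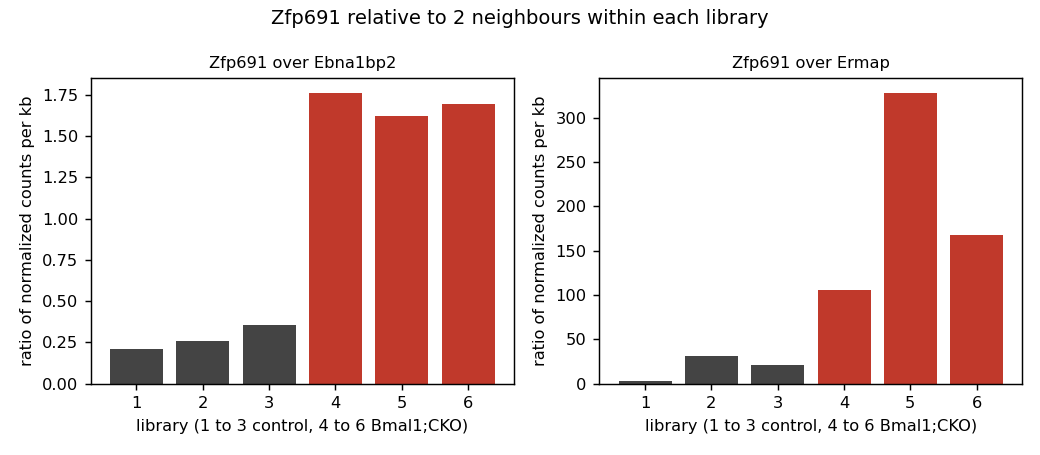
Ratio of Zfp691 to Ebna1bp2 (left) and to Ermap (right) in normalized counts per kb of exon (vertical axes, from 0), as 1 bar for each library, grey for control and red for Bmal1;CKO. Zfp691 is below Ebna1bp2 in every control library and above it in every Bmal1;CKO library, and its ratio to Ermap runs from 2.71 to 31.2 in control and from 106 to 328 in Bmal1;CKO.

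The surroundings were examined to see whether other genes close by differed in the same way. Apart from the members, 72 genes of the table lie within 1 Mb of Zfp691, and 28 of them had enough reads to be tested. Of the 44 that did not, 23 had 0 reads in all 6 libraries, and the block of 15 olfactory receptor genes between Ebna1bp2 and Slc2a1 had at most 5 reads together in a library. Of the 28, the mean log2 value in Bmal1;CKO was above control in 22 (78.6%) and below it in 6, against 56.6% above it among all tested genes. Ermap, Svbp, Cfap57 and Ebna1bp2 lie in the same window but were left out of this count, and all 4 were below control. The median log2 fold change was 0.11 over all tested genes and 0.29 over the 28 neighbours. Limma-trend called 0 of the 28, with 1 at an unadjusted p under 0.05, against 4.92% of all tested genes. edgeR and DESeq2 also called 0, with 0 at an unadjusted p under 0.05. Without control library 1 the split was 16 higher and 12 lower and the median 0.04. With edgeR or DESeq2 it was 19 and 9, with medians of 0.15, and the median of all genes was then -0.03.

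In 2 of the 28 neighbours the genotypes did not overlap, against the 11.2% of all genes, and 1 of them is described. Ptprf, a receptor tyrosine phosphatase gene, had 1010.2, 2261 and 2281 in control and 2641, 2435 and 2600 in Bmal1;CKO, with narrow gaps (log2 fold change 0.56, standard error 0.38, adjusted p = 0.883 by limma-trend). It starts 883 kb from Zfp691. None of the 4 tested neighbours that start within 100 kb of Zfp691 had groups that were apart.

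Genes known for their endothelial roles are among these neighbours. Slc2a1, the glucose transporter of the blood-retina barrier, starts 65.5 kb from Zfp691 and had 29317, 28131 and 26851 normalized counts in control and 20703, 15934 and 35907 in Bmal1;CKO. The Bmal1;CKO libraries lay on both sides of the control libraries (log2 fold change -0.30, standard error 0.33, adjusted p = 0.887 by limma-trend). Tie1, an endothelial receptor of the angiopoietin system, starts 684 kb away and had 5919, 5018 and 7749 in control and 4442, 2361 and 8230 in Bmal1;CKO, again overlapping (log2 fold change -0.47, standard error 0.45, adjusted p = 0.883). In Bmal1;CKO library 5 both were at their lowest, whereas Zfp691 was at its highest there.

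**Figure D3:**
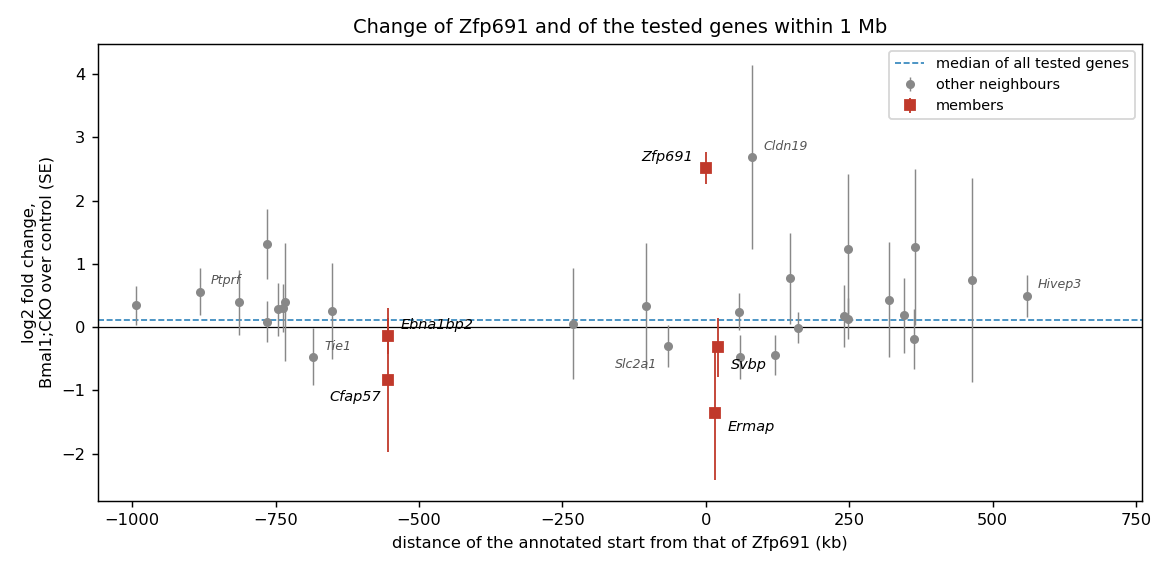
Log2 fold change of Bmal1;CKO over control with its standard error (vertical axis) against the distance of each gene's annotated start from that of Zfp691 in kb (horizontal axis), for the 5 tested members (red squares) and the 28 other tested genes within 1 Mb (grey circles). Zfp691 stands at 2.52 with a short error bar, the nearest members Ermap and Svbp are below 0, and the only other gene above 2 is Cldn19, whose low counts give a standard error of 1.46.

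The direction of the other members depended on control library 1. Without it the log2 fold changes were 2.51 for Zfp691, -0.28 for Ermap, 0.07 for Svbp, 0.03 for Ebna1bp2 and 0.20 for Cfap57, so that 3 of the 4 neighbours changed sign. Over all 6 libraries left out in turn, Zfp691 ran from 2.40 without Bmal1;CKO library 5 to 2.63 without library 6. Ermap ran from -2.03 to -0.28, Cfap57 from -1.73 to 0.20, Svbp from -0.78 to 0.07 and Ebna1bp2 from -0.33 to 0.03.

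**Figure D4:**
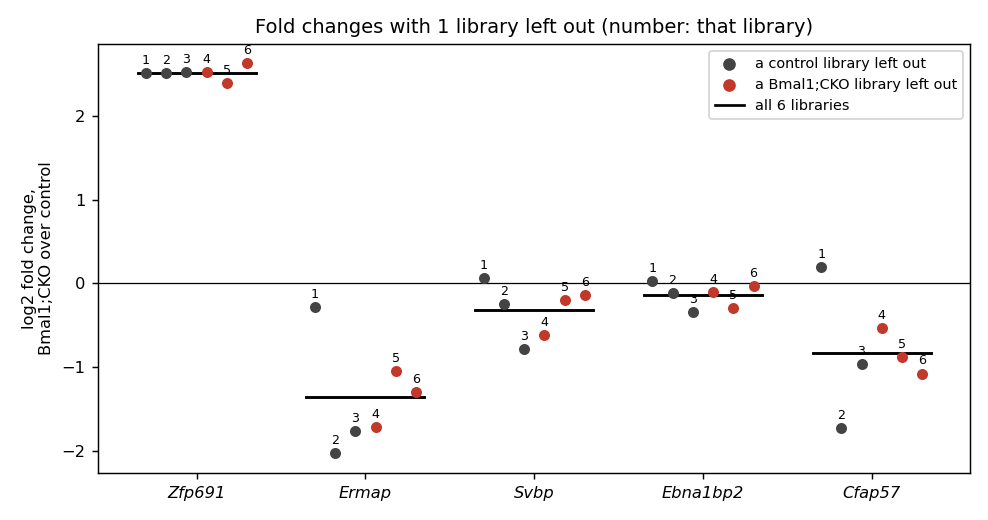
Log2 fold change of the 5 tested members (vertical axis) with each library left out in turn, marked by the number of that library, grey for control and red for Bmal1;CKO, with a black line for all 6 libraries. Zfp691 stays between 2.40 and 2.63, while Svbp, Ebna1bp2 and Cfap57 cross 0 when control library 1 is left out.

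Several facts of the libraries moved with the genotype or with single libraries. Bmal1 itself, listed as Arntl, had 1700.4, 3489 and 2928 normalized counts in control and 1779, 2747 and 2415 in Bmal1;CKO. Its reads as counted over the whole gene thus overlapped between the groups, and the floxed exon was not resolved. By droplet digital PCR, the paper reports significantly less Bmal1 transcript in sorted mutant cells. Xist, the RNA of the inactive X chromosome, was chosen after its values were seen, and had 2.78 to 6.15 normalized counts in control and 439, 2492 and 773 in Bmal1;CKO libraries 4, 5 and 6. The Y-linked gene Eif2s3y had 1614 to 3145 in control and 487, 0 and 900.4 in Bmal1;CKO, and Ddx3y, Kdm5d and Uty were likewise lower in each Bmal1;CKO library than in each control library. Bmal1;CKO libraries 4 and 6 thus held both Xist and Y-linked reads, and whether they came from pups of both sexes was not tested. Zfp691 moved with these sex-linked transcripts as it did with the genotype, and these groups cannot tell the one from the other. Among the Bmal1;CKO libraries, from high to low, the order was 5, 4, 6 for Zfp691 and 5, 6, 4 for Xist. For Eif2s3y, Ddx3y, Kdm5d and Uty it was 6, 4, 5, the reverse of Zfp691. These orders are descriptions only. All 12 endothelial markers had at least 10 reads in every library, with a summed level of 198651 to 361263 normalized counts in control and 120431 to 251958 in Bmal1;CKO, and all 12 had a lower mean log2 value in Bmal1;CKO (median log2 fold change -0.51, 0 called by limma-trend and 0 at an unadjusted p under 0.05). That median was -0.16 without Bmal1;CKO library 5 and -0.94 without library 6, where 3 markers had an unadjusted p under 0.05. The 9 markers of microglia and macrophages, present in every library too, summed to between 1386180 and 4103350 in control and between 2013410 and 3985840 in Bmal1;CKO. Of these markers, 8 of 9 were higher, against 56.6% of all tested genes (median 0.40, 0 called and 0 at an unadjusted p under 0.05). Without control library 2 the split was 6 and 3 and the median 0.07, and leaving out Bmal1;CKO library 4 gave a median of 0.13, control library 1 one of 0.74. The 10 rod markers summed to 847981 to 982052 and 652774 to 1033860. Of these 10, 9 were lower in Bmal1;CKO (median -0.17, 0 called and 1, Cnga1, at an unadjusted p under 0.05), but 4 were lower and 6 higher without Bmal1;CKO library 4. The 6 pericyte markers summed to 2626 to 42930.1 in control, the highest in library 3, and 3861 to 6906 in Bmal1;CKO. Of these 6, 3 were higher and 3 lower (median -0.20, 0 called by limma-trend and 0 at an unadjusted p under 0.05). With DESeq2 and with edgeR 0 were higher and 6 lower, with 2 at an unadjusted p under 0.05 in DESeq2. The limma-trend median was -1.72 without control library 1, with 3 at an unadjusted p under 0.05, and 1.97 without control library 3. In every library the microglia and rod sums were each above the endothelial sum. These lists differ in their genes, so the sums do not give shares of these cell types. Which of these cells held the Zfp691 transcripts was not tested, and in such bulk samples fewer cells of a type and less RNA per cell cannot be told apart.

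The wider families of the members were followed as lists. Of 375 genes with a symbol of Zfp and a number, most of them zinc finger genes like Zfp691, 329 were tested. The mean log2 value in Bmal1;CKO was above control in 220 of these (66.9%) and below it in 109, against 56.6% above it among all tested genes. The median log2 fold change of the 329 was 0.28, or 0.10 with edgeR and TMM scaling, where all tested genes had 0.11 and -0.03. Without control library 1 the split was 163 and 166 and the median -0.01. The genotypes did not overlap in 37 of them (11.2%), the same share as among all genes. Limma-trend called 0, with 14 of the 329 at an unadjusted p under 0.05, against 4.92% of all tested genes. The 14 became 5 without Bmal1;CKO library 5, 51 without control library 3 and 25 without control library 1. Zfp276 had 1613, 1580 and 1489 normalized counts in control and 2681, 3677 and 3059 in Bmal1;CKO, close values in control and a wider spread above them, as in Zfp691 but at a log2 fold change of 1.00 (standard error 0.27, adjusted p = 0.883 by limma-trend). Zfp710 had 8896 ± 2979 and 19365 ± 3863 (SD, n = 3 each), and its groups did not overlap. Zfp459 had 0, 0 and 2 reads in control and 30, 78 and 33 in Bmal1;CKO, so it passed the filter on reads only through Bmal1;CKO and its p carries no weight. Zfp444, the most abundant, had 36385 ± 7390 and 45988 ± 5883 (SD, n = 3 each), with overlapping groups.

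The vasohibins, which need the Svbp protein to be active, were measured beside it. Vash1 had 573, 350 and 325 normalized counts in control and 308, 501 and 467 in Bmal1;CKO. These values were interleaved, with a log2 fold change of 0.05 (standard error 0.50, adjusted p = 0.989 by limma-trend). Vash2 had 8.61, 897 and 1441 in control and 187, 582 and 1009 in Bmal1;CKO, so that control library 1, where Svbp was highest, was the lowest for Vash2. Of the 13 genes listed for tubulin tyrosination, 10 were tested, 7 higher and 3 lower, against 56.6% higher among all tested genes. The median of the 10 was 0.23, or 0.01 under edgeR with TMM scaling. Ttl, the ligase that puts the tyrosine back, had 737 ± 687 and 1433 ± 481 (SD, n = 3 each, adjusted p = 0.883 by limma-trend), and the alpha-tubulin gene Tuba1a 177964 ± 63045 and 225710.0 ± 41887 (SD, n = 3 each). Limma-trend called 0 of the 10, with 0 at an unadjusted p under 0.05.

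All 18 genes listed with Ebna1bp2 for assembly of the large ribosomal subunit were tested, 9 of them higher and 9 lower, and their median log2 fold change was -0.05. Limma-trend called 0, with 0 at an unadjusted p under 0.05. Their summed level was even over the libraries, from 108199 to 120989 normalized counts in control and from 100997 to 118562 in Bmal1;CKO. Nop58, a core protein of the box C/D particles that guide methylation of ribosomal RNA, had the smallest p, with 3509 ± 1080 and 2044 ± 473 (SD, n = 3 each) and an adjusted p of 0.883. Of 18 motile cilia genes listed with Cfap57, 13 were tested, 10 higher and 3 lower, against 56.6% higher among all tested genes. The median of the 13 was 0.87, or -0.05 under edgeR with TMM scaling and -0.22 without control library 1. The split was 6 higher and 7 lower in both of those settings. The summed level of the list was 2308 to 2991 over the 6 libraries and 2722 in control library 1, where Cfap57 was highest, but single genes varied far more. In control library 1 Dnah9, a dynein heavy chain gene, had 819 normalized counts, 5.66 times the highest other library, and Cfap43 had 199, or 3.46 times. Foxj1, the transcription factor of motile cilia, had 1.23 there and 174 to 454 in the others. Limma-trend called 0 of the 13. Rsph1, a radial spoke gene, had 0, 0 and 7 reads in control and 24, 86 and 14 in Bmal1;CKO, so it too passed the filter on reads only through Bmal1;CKO, and its unadjusted p under 0.05, the only 1 of the list, carries no weight. Of the 8 butyrophilin genes listed with Ermap, 2 were tested, Btnl2 and Btnl9, and both overlapped between the genotypes.

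Finally, the genes whose profile over the 6 libraries was most like that of Zfp691 were listed by the Pearson coefficient of log2(normalized count + 1), as a description over 6 libraries in which the difference between the genotypes is most of the variation. The 5 highest were Hist1h2al, 1700030C10Rik, Gm17590, Gm42738 and Gm26629, with coefficients of 0.998 to 0.999. All 5 had 0 reads in every control library and between 9.89 and 104 normalized counts in the Bmal1;CKO libraries, and none is on chromosome 4. They passed the filter on reads only through Bmal1;CKO, so their coefficients carry no weight. In all, 108 tested genes had a coefficient over 0.95. The 3 lowest were Gm10059 (-0.993), Arhgap19 (-0.993) and Lancl2 (-0.983), of which Gm10059 passed that filter only through control. Arhgap19 had 1798, 1662 and 1531 normalized counts in control and 758, 648 and 744 in Bmal1;CKO, so that it was lower in every Bmal1;CKO library. No other member came close to this profile. The coefficients of Zfp691 with the other 5 lay between -0.52 and -0.20, whereas Ermap and Cfap57, both highest in control library 1, had 0.83.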

How the data were processed

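Per the labels and methods, the authors used FastQC, Trimmomatic, Bowtie (mm10, Ensembl GRCm38 v87), featureCounts for gene counts, and DESeq2. The use of strand and the tool versions are not given in the sources used here. The deposited values are a signal, the count divided by the size factor of its library. Dividing each column by its smallest step gave whole reads for 100% of the values. The authors' columns of their own comparison were not used. The column numbers do not match the numbers of the sample titles, so each column served as a replicate of its genotype. Starts in the table are 1 base below those of GENCODE M21 and were raised by 1.

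Genes reaching 10 reads in 3 or more libraries were fitted by genotype alone with limma-trend (limma 3.58.1, R 4.3.3) on log2(normalized count + 1) and Benjamini-Hochberg adjustment. For genes with few or uneven reads, such fold changes differed from those of edgeR and DESeq2 in either direction. edgeR 4.0.16 and DESeq2 1.42.0 were run on the recovered reads as alternatives. All methods were also run on simulated counts with the same dispersion in every gene and no library set apart, unlike these data. That simulation does not show how the methods behave here. P-values measure the spread between these libraries. An exact permutation test of 3 against 3 cannot go below 0.1 and was not used. The members, lists and window were chosen with earlier results of these data known. Genes named were the members, neighbours within 1 Mb whose groups did not overlap (at most 10), Tie1 and Slc2a1, the 5 genes most and 3 least like Zfp691, and from each list those of the 3 smallest p and the most abundant. A neighbour that met this rule is not reported here. Others are named where a count of few genes or a measured fact called for them. Of 11 erythroid markers, 10 were found in the table by symbol. Exon lengths are unions over GENCODE M21 transcripts, and promoters are from RefSeq (GRCm38.p6). Proteins were not used here. Python 3.11.15 with pandas 2.3.3 made the tables.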

Additional observations from a re-analysis of the deposited data

How the results depend on the processing

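The log2 fold change of Zfp691 stayed within the spread between its replicates under all 14 alternatives, from 2.40 to 2.63. With DESeq2 the log2 fold changes of Ermap and Cfap57 were -2.11 and -1.60, against -1.36 and -0.83 in the main analysis. The count of genes called over the whole table was 0 in the main analysis, 67 with DESeq2, 1 (Rpl29) with genes of at least 1 read in total, and 1 (Rpl29) with genes of at least 10 reads in every library. With single libraries left out the count ran from 0 to 6, and the 6 came without control library 1. The number of genes at an unadjusted p under 0.05, 1007 in the main analysis, ran from 444 to 2444 with single libraries left out. Among the neighbours within 1 Mb, 0 were called under every setting, and 1 of the 28 tested had an unadjusted p under 0.05 in the main analysis. That count was 0 with DESeq2, with edgeR under either scaling, with a pseudocount of 10 and in a window of 0.5 Mb. In a window of 2 Mb it was 3 of 58 tested genes (Ctps and Gm12843 among them), against 4.92% of all tested genes. Gm12843 had 0, 2 and 16 reads in control and 64, 44 and 26 in Bmal1;CKO, so it passed the filter on reads through Bmal1;CKO. The count within 1 Mb was 0 to 1 with a library left out. The cause was not tested. No paired analysis was possible because the columns of the table carry numbers that do not match the replicate numbers of the sample titles. With 3 libraries a group and control library 1 apart from the rest, the neighbours' direction is not fixed by these data, and depth limits Tmem125, which is at or under the floor of 3 reads.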
